A study of Mus musculus with 4 samples.

Results

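Imprinted genes of the mouse were followed across 4 single-cell RNA-seq libraries of Tbx1 lineage cells. The set was a list of 39 symbols of genes known to be imprinted in the mouse, drawn up when it was already known that Igf2 was far lower in 1 of the libraries. Matching by Ensembl identifier found 38 of the 39 among the 27514 identifiers that the gene tables of all 4 libraries share, and Rian was in no gene table. All 38 had 20 or more unique molecular identifiers (UMIs, 1 per captured molecule) in at least 1 library. Because the low value of Igf2 at E9.5 was part of the rule for the set, it is given here as a description.

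The libraries came from Swiss Webster embryos in which Cre recombinase, knocked into the Tbx1 locus, switched on a GFP reporter in cells that had ever expressed Tbx1. Ctrl embryos were Tbx1Cre/+;Rosa26-GFPflox/+ and cKO embryos were Tbx1Cre/flox;Rosa26-GFPflox/+, so that 1 Tbx1 copy was inactive in every embryo, controls included, and the second was removed in the cKO only where Cre acted. Live GFP-positive cells were sorted from the upper body at E8.5 and from the pharyngeal apparatus and heart at E9.5, which the study lists as taken with the back. Embryos were pooled into 1 library for each genotype and stage. There was therefore no replicate, no p-value was computed, and every 95% interval below covers counting error only. At E8.5 the study's range of somite counts lay higher for the cKO than for the Ctrl embryos. Genotype and embryo age therefore cannot be told apart at that stage. Fewer embryos were pooled for the cKO than for the Ctrl library at each stage.

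The Ctrl E8.5, cKO E8.5, Ctrl E9.5 and cKO E9.5 libraries held 1434, 1090, 5453 and 6266 cells and 25236185, 25733964, 94273154 and 104635590 UMIs on shared identifiers, with medians of 15888 to 23883 UMIs per cell. Levels are UMIs per 1000000 UMIs (UPM) over all cells of a library, always given in that order of libraries. Between 13 and 72 cell barcodes of a library recurred in another library. Tbx1 itself stood at 86.4, 118, 103 and 134 UPM, so the 3′ count of the targeted gene was not lower in the cKO libraries and does not check the genotype. Ribosomal protein genes took 24.9% of UMIs in the Ctrl E9.5 library and 30.4% to 31.0% in the others. The cKO E9.5 library alone was counted on a gene table of 31053 rows, against 27998 for the other 3 libraries.

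Genomic imprinting marks a small number of mammalian genes so that only the copy from the father, or only that from the mother, is transcribed. Most such genes lie in clusters, where a differentially methylated control region and often a long non-coding RNA set the active copy for several neighbours. Paternally expressed genes such as Igf2, Dlk1, Peg3 and Mest are mainly known for promoting embryonic and placental growth, and maternally expressed genes such as H19, Cdkn1c, Igf2r and Phlda2 for restraining it. Some of those listed, such as Ascl2 and Phlda2, are imprinted or act mainly in the placenta. The UMIs do not tell the parental copies apart, so what follows is the summed output of both.

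Igf2 encodes a growth factor of the insulin family, and H19 a non-coding RNA that lies downstream of it and shares its enhancers. Over all cells Igf2 stood at 159, 265, 271 and 9.26 UPM, from 4020, 6815, 25576 and 969 UMIs. The cKO E9.5 library was thus far below the other 3, none of which was under 159 UPM. At E9.5 the level was 29.3-fold lower in the cKO library (log2 ratio −4.87, 95% interval −4.97 to −4.78), and Igf2 ranked 35 from the lowest among 15130 genes with 20 or more UMIs in both libraries together. At E8.5 it was higher in the cKO library, with a log2 ratio of 0.73 (0.68 to 0.79). H19 stood at 664, 667, 685 and 571 UPM, with the cKO E9.5 library slightly below the other 3. The cKO to Ctrl ratio in log2 was 0.01 (−0.02 to 0.04) at E8.5, where its sign changes with the scaling, and −0.26 (−0.28 to −0.25) at E9.5. The difference in H19 at E9.5 was close to the median of all genes tested there, which was −0.26, while Igf2 lay 4.62 below that median on the log2 scale. In sums over all cells, fewer cells of a type and less RNA per cell cannot be told apart.

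Both genes host a microRNA within their transcribed span, shown here because it marks what each locus makes beside the counted RNA. Mature sequences are from RefSeq on GRCm38.p6, 5′ to 3′, with the seed (bases 2 to 8) in capitals, and all lie on chromosome 7. The 3′ counts of a host gene do not measure its microRNA.
miR-483-5p: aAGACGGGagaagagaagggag
miR-483-3p: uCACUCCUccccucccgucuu
miR-675-5p: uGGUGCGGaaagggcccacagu
miR-675-3p: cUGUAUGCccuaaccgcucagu
The first pair lies in Igf2 (miR-483-3p at chr7:142654932-142654952) and the second in H19 (miR-675-5p at chr7:142577112-142577133). No other mature microRNA in the RefSeq table of 1679 shared a seed with any of these 4.

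Igf2 has 4 annotated start windows in RefSeq (250 bases before to 50 after a transcript start) with 7, 24, 14 and 2 CpG dinucleotides, the bases at which imprinting marks are written. The window richest in CpG and the one poorest in it are shown with each CpG in capitals. A 3′ count does not tell which start was used.
Igf2, chr7:142658755-142659054, minus strand: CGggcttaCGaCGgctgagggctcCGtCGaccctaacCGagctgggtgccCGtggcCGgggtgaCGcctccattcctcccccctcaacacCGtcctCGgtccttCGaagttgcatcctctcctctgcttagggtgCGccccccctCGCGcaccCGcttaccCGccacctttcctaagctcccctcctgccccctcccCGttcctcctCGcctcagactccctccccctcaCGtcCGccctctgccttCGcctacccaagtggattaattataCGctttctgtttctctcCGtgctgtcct
Igf2, chr7:142666767-142667066, minus strand: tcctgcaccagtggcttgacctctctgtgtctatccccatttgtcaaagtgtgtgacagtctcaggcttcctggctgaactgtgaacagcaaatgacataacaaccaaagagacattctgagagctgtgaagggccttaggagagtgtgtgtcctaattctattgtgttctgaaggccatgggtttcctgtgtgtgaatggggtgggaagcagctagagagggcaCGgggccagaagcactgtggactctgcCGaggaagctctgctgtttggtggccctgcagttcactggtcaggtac
Across the set, 32 genes, counting Rian, had 52 such windows with a median of 13 CpG, against 7 in all 32851 windows of the table. H19, Cdkn1c, Peg10, Sgce, Nap1l4, Dcn and Impact had no window in this count, and control regions outside these windows were not searched. The core of the CTCF motif, searched like the others on both strands, was in 0 of the 52 windows and in 0.122% of all windows. The YY1 core, GCCATNTT, was in 3.85% of the members' windows and 6.05% of all, and the letters TATAAA in 19.2% against 13.6%. These are matches of letters only.

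The low Igf2 level in the cKO E9.5 library was spread over cells rather than set by a few. No Igf2 UMI was seen in 5396 of its 6266 cells, 1 UMI in 783, and 2 or more in 87, with at most 5 in any cell. In the Ctrl E9.5 library 413 of 5453 cells had none and the highest cell held 42. After each cell was thinned to 10000 UMIs, which left out 84 to 718 shallower cells per library, the share of cells with an Igf2 UMI was 73.5%, 86.1%, 85.6% and 8.94%, with exact (Clopper-Pearson) 95% intervals from 71.0% to 75.9% in the first and from 8.20% to 9.72% in the last. Without thinning the shares were 84.1%, 92.9%, 92.4% and 13.9%. Neural-like cells had the lowest share among the classes at E9.5 named below with 50 or more cells, at 29.2% of 89 thinned Ctrl cells (median 16141 UMIs) and 4.0% of 125 cKO cells (1.31% to 9.09%, median 16856 UMIs), against library medians of 16567 and 15888 UMIs. The share over all cells of the cKO E9.5 library lay within that last interval, which is wide for 125 cells. Neural-like cells held Igf2 UMIs in both libraries, so they do not give the level of free RNA. They also came mostly from different clusters in Ctrl and cKO, as given below. The share that free RNA gives was not measured, and a signal above it was not shown for most cKO E9.5 cells. CM-like cells of the same library reached 33.3% (20.4% to 48.4%).

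Cells were clustered with the imprinted genes left out of the clustering genes, and clusters were named from fixed markers in the Ctrl libraries, with "-like" for a name from markers. The names used are those of cardiopharyngeal biology: multilineage primed progenitors (MLP), branchiomeric muscle progenitors (BrM), posterior second heart field (pSHF), cardiomyocytes (CM), and mesenchyme, endothelial, epithelial and neural cells. Between 31.8% and 44.3% of cells per library lay in clusters that took no name. Among these, cluster 8 held 8 markers listed for the anterior second heart field and somatic mesoderm (aSHF/SoM), but its 10 leading genes included 1 of these (Hand2) and 1 of cardiomyocytes (Tnni1), a tie that left it unnamed. Names and shares rest on this rebuilt clustering and may differ from those of the study.

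In the Ctrl E9.5 library Igf2 was highest in CM-like cells at 479 UPM (445 to 514), followed by endothelial-like cells at 436 (422 to 450) and pSHF-like cells at 402. The intervals of CM-like and endothelial-like cells overlapped, and neural-like cells were lowest of the classes with 50 or more cells, at 97.9 (83.7 to 114). In the cKO E9.5 library the levels ran from 24.5 UPM in CM-like and 16.1 in endothelial-like cells down to 6.34 in neural-like cells. Igf2 was past 2-fold lower in the cKO in all 8 named classes with 50 or more cells in both libraries, and in all 14 such groups when unnamed clusters are counted, with log2 ratios from −5.56 (−6.21 to −4.98) in pSHF-like to −3.95 (−4.72 to −3.26) in neural-like cells. The neural-like class was mostly cluster 21 in Ctrl E9.5 (65 of 102 cells) but cluster 20 in cKO E9.5 (128 of 165). Any E9.5 ratio of that class thus compares partly different cells. The MLP-like cells, central to the study, gave −3.96 (−4.25 to −3.67) from 245 to 15.8 UPM, and BrM-like cells −4.89 from 302 to 10.2. The same held in 22 of 22 single clusters with 20 or more cells. At E8.5 the direction was opposite in 17 of 17 clusters, where the cKO level was 1.28 to 2.17 times that of Ctrl. MLP-like cells had the widest E8.5 ratio of the named classes, 1.12 on the log2 scale, from 154 to 335 UPM.

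H19 was ordered over cell groups much as Igf2 was, without the low level in the cKO E9.5 library. At E9.5, CM-like cells had 1269 UPM in Ctrl and 1276 in cKO, BrM-like cells 793 and 804, and mesenchyme-like cells 516 and 467. Its log2 ratios at E9.5 ran from −0.41 (−0.50 to −0.33) in pSHF-like to 1.16 (1.0003 to 1.33) in neural-like cells, and the latter class was mostly cluster 21 in Ctrl (65 of 102 cells) but cluster 20 in cKO (128 of 165). Across cell groups with 20 or more cells, the Spearman correlation of Igf2 with H19 was 0.956, 0.958, 0.95 and 0.925 in the 4 libraries, over 13, 12, 15 and 15 groups that share their library and depth. The rank order of Igf2 over 14 groups in Ctrl E9.5 and cKO E9.5 had a Spearman correlation of 0.763. These correlations are descriptions.

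**Figure D1:**
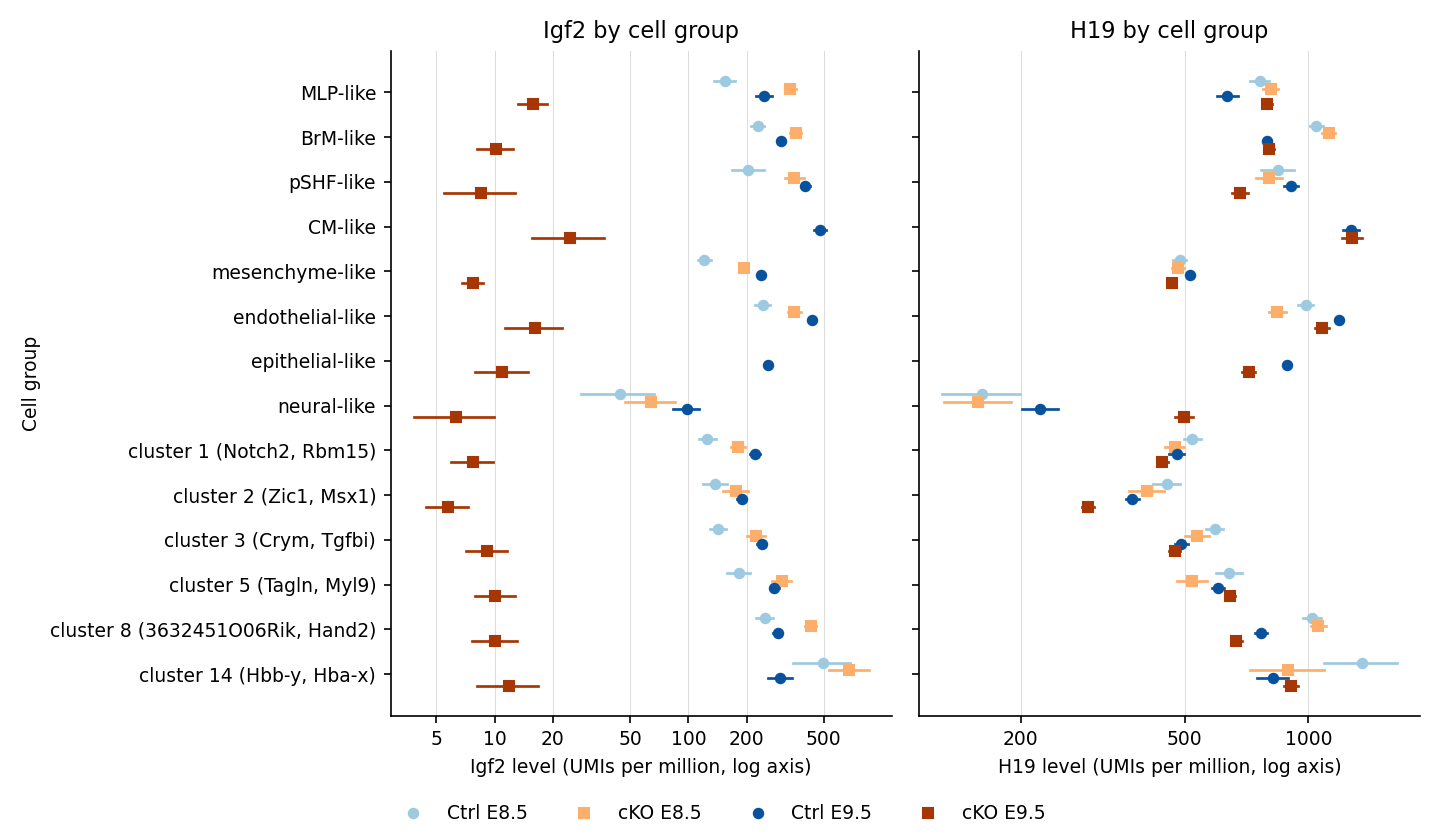
Igf2 (left) and H19 (right) in UPM on log axes, by cell group (named classes and unnamed clusters with their 2 leading genes) in the 4 libraries, with exact Poisson 95% intervals that cover counting error, and groups under 20 cells left out. Every cKO E9.5 square for Igf2 lies at or below 24.5, left of the symbols of the other 3 libraries, while the H19 symbols of the 4 libraries lie close together in most groups.

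**Figure D2:**
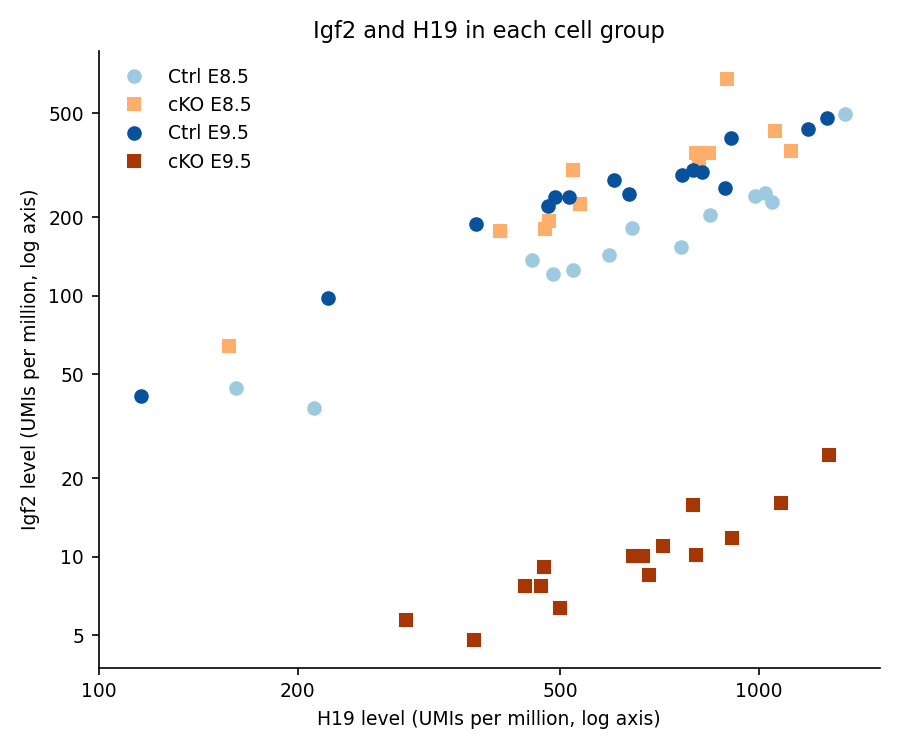
Each point is 1 cell group with 20 or more cells in 1 library, with the H19 level on the horizontal and the Igf2 level on the vertical log axis, both in UPM. Groups rise together within each library, and the cKO E9.5 squares form a separate band well below the other 3 libraries.

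The counting of the libraries differed along with the Igf2 level. The cKO E9.5 library was the library with a gene table of its own, in which 3539 rows were absent from the other table, and 2 of those rows sat directly beside Igf2: Gm33148 with 99 UMIs and Gm49394 with 1 UMI. Among genes with such a row beside them, 20 of 1902 (1.05%) were lower in the cKO by more than 16-fold at E9.5, against 34 of 13228 (0.257%) without one. At E8.5, where both libraries used 1 gene table, the counts were 0 of 1601 and 1 of 11161. Igf2os, an antisense gene that overlaps Igf2, had 64, 85, 232 and 316 UMIs, with no drop. Gene table, library and genotype cannot be told apart at E9.5. Of the other members, H19, Dlk1, Meg3, Mirg, Plagl1, Slc38a4 and Dcn also had a neighbouring row listed only for the cKO E9.5 library. The 6 blood markers summed to 0.634, 0.194, 67.9 and 4.89 UPM over the 4 libraries, and the 7 yolk sac markers to 4.48, 6.26, 8.58 and 8.48, with Afp at 0 UMIs in both Ctrl libraries. Without clusters 14 and 22, the first of which is led by haemoglobin genes, the Igf2 ratio at E9.5 was −4.88.

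Over the whole set, the 3 comparisons behaved differently. At E8.5 the members' median log2 ratio of cKO to Ctrl was 0.14, against 0.04 over all 12762 genes tested, and 0 of 38 members passed 2-fold, beside 4.22% of all genes (2.92% higher and 1.3% lower). At E9.5 the median was −0.07, against −0.26 over 15130 genes, and 5 of 38 members passed 2-fold, beside 13.4% of all genes. Lower past 2-fold were Igf2, Peg10 (−1.21), Dcn (−1.21) and Gatm (−1.01), beside 9.8% of all genes, and higher was Mirg (1.204), beside 3.56%. The share of members was thus near that of all genes. The E9.5 median is not firm in sign, since a scaling by trimmed mean of M values (TMM) gave 0.18 for the members with the all-gene median at 0.00, and only Igf2 and Mirg passed 2-fold under each of 3 scalings. The 1 higher and 4 lower calls became 2 higher and 1 lower with TMM. Without Igf2 the members' median was the same to 2 decimals, −0.07. By usual parental copy, the 18 paternally expressed members had medians of 0.23 and 0.06 at E8.5 and E9.5 and the 17 maternally expressed members 0.10 and −0.32. This split is by label only, since the copy used in these cells was not read. The maternal list holds genes that are imprinted or act mainly in the placenta, such as Ascl2 and Phlda2. Of 45 further imprinted genes, 42 were in the tables, and among those with enough UMIs 1 of 22 passed 2-fold at E8.5 and 5 of 35 at E9.5, with medians of 0.03 and −0.33.

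Between stages in the Ctrl libraries, 9 of 38 members passed 2-fold, beside 21.1% of all genes. Higher at E9.5 were Cdkn1c (1.51), Asb4 (1.34), Osbpl5 (1.29), Sgce (1.24), Gnas (1.16), Plagl1 (1.12) and Copg2 (1.02), beside 18.1% of all genes, and lower were Phlda2 (−1.47) and Ascl2 (−2.42), beside 2.98%. Cdkn1c, Asb4, Phlda2 and Ascl2 kept this under each of 3 scalings, and TMM left 2 higher and 2 lower. In the cKO libraries 7 of 38 passed, beside 17.4% of all genes. Dlk1 (1.19) and Asb4 (1.06) were higher at E9.5, beside 11.5%, and Igf2 (−4.84), Phlda2 (−1.99), Ascl2 (−1.96), Peg10 (−1.45) and Dcn (−1.08) were lower, beside 5.94%. Stage, the tissue dissected and the library cannot be told apart, and in the cKO neither can the gene table, which differed between its stages. Of the further imprinted genes tested in the Ctrl libraries, 12 of 32 passed 2-fold, all higher at E9.5, or 37.5% beside the 18.1% of all genes that were higher. That share was not recomputed under other scalings, while the members' own higher calls fell from 7 to 2 with TMM.

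**Figure D3:**
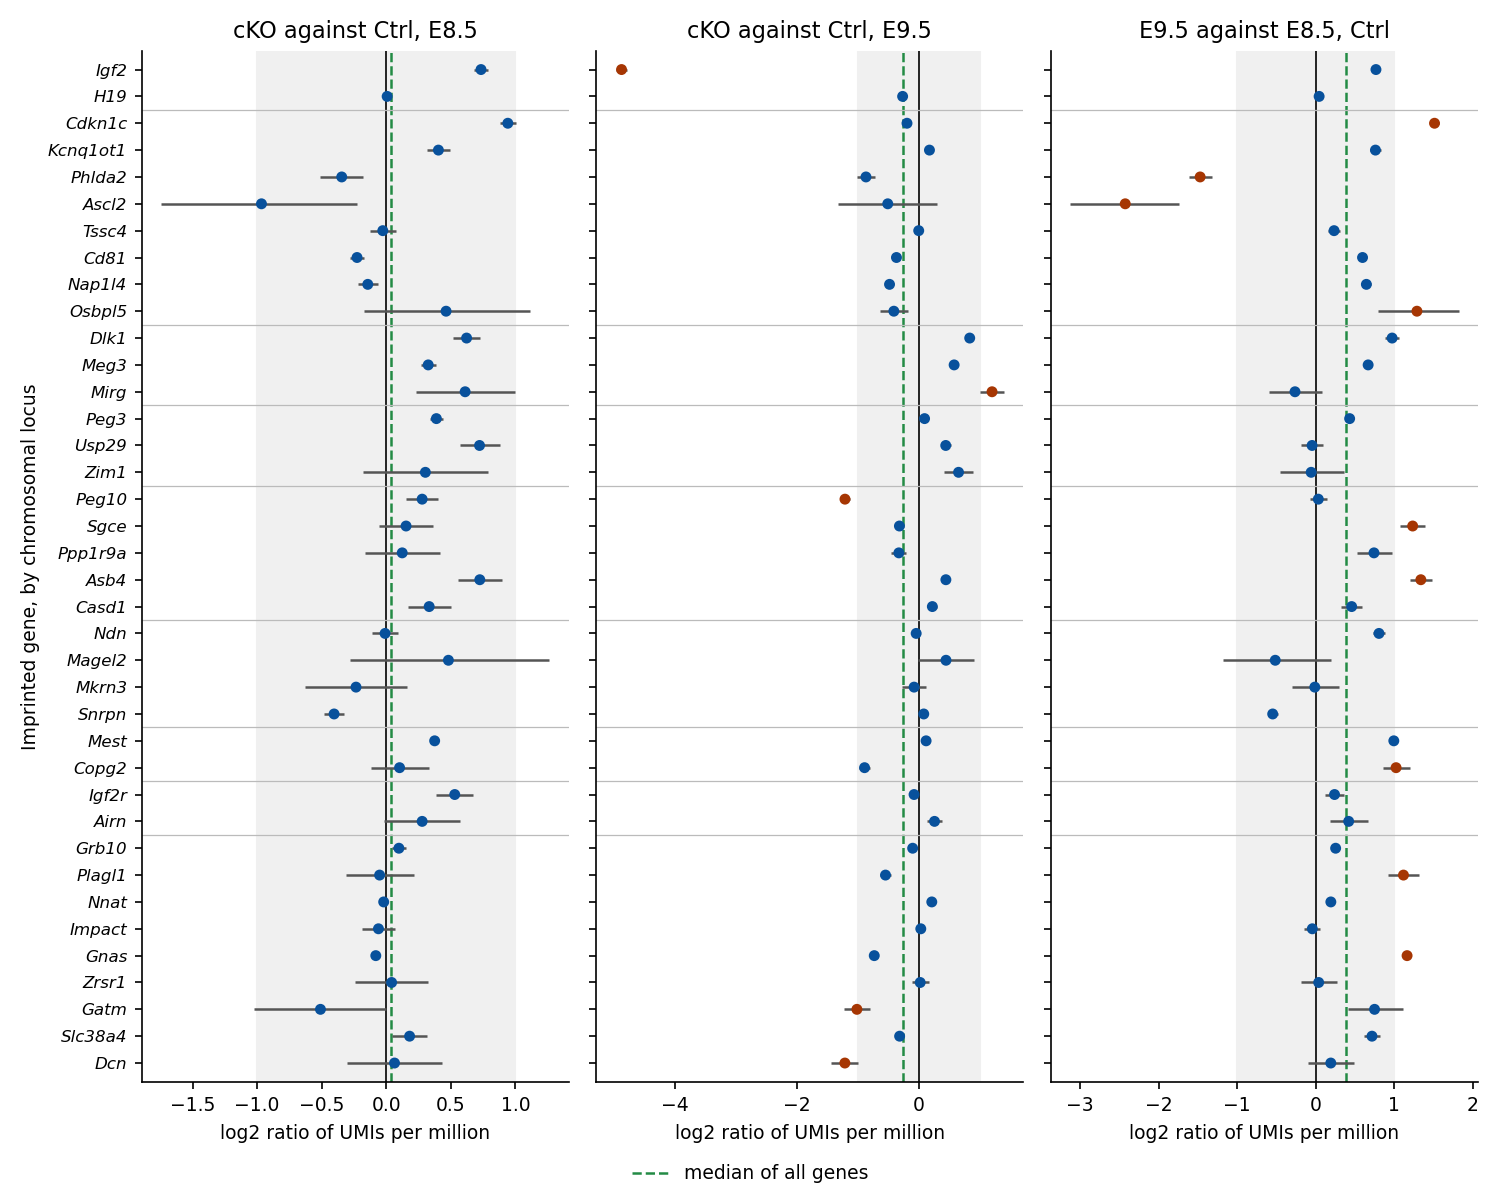
Log2 ratio of UPM for each of the 38 imprinted genes, grouped by locus, for cKO against Ctrl at E8.5 and at E9.5 and for E9.5 against E8.5 in Ctrl, with 95% counting intervals. The grey band is 2-fold in either direction, red points lie outside it, and the dashed line is the median of all genes tested. The 5 red points of the middle panel are Igf2, Mirg, Peg10, Dcn and Gatm.

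On chromosome 7, the cluster that Kcnq1ot1 controls lies beyond Igf2. Cdkn1c, an inhibitor of cyclin-dependent kinases that restrains growth, stood at 125, 240, 358 and 313 UPM, with log2 ratios of 0.94 (0.88 to 1.003) at E8.5 and −0.19 (−0.21 to −0.17) at E9.5, the latter changing sign with the scaling. Kcnq1ot1, the paternally transcribed non-coding RNA, stood at 74.8, 98.9, 127 and 143 UPM, and Phlda2, a growth restraint of the placenta, at 26.9, 21.2, 9.71 and 5.33. Over all cells Phlda2 was thus lower in the cKO at both stages and lower at E9.5 in both genotypes. Within cell groups its E9.5 ratio was below 0 in 7 and above 0 in 6 of 13, with 0.93 in CM-like cells, and no named class had an interval below 0. Epithelial-like cells, second to CM-like cells in Phlda2, made up 13.7% of Ctrl and 3.11% of cKO cells. Ascl2, a transcription factor of the trophoblast, had 46, 24, 32 and 25 UMIs, or 1.82, 0.933, 0.339 and 0.239 UPM. The remaining members of the cluster were Tssc4 (64.2, 63.0, 75.5 and 75.6 UPM), the tetraspanin Cd81 (229, 195, 346 and 269), the histone chaperone Nap1l4 (116, 105, 182 and 131) and Osbpl5, a lipid transfer protein (1.47, 2.02, 3.58 and 2.70). As scaled here, Tssc4 barely differed within a stage, with log2 ratios of −0.03 and 0.00, while Cd81 and Nap1l4 had ratios of −0.36 and −0.48 at E9.5. Relative to the all-gene median of E9.5, Tssc4, Cd81 and Nap1l4 stood at 0.26, −0.11 and −0.22.

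By cell class in Ctrl E9.5, Cdkn1c stood at 3039 UPM (2953 to 3126) in CM-like cells, followed by MLP-like cells at 685, and was lowest in epithelial-like cells at 222. Phlda2 was also highest in CM-like cells, at 75.1 UPM, with epithelial-like cells at 39.5 and endothelial-like cells at 1.16 from 10 UMIs. Kcnq1ot1 varied far less, from 176 in CM-like to 96.7 in endothelial-like cells. Cd81 was highest in endothelial-like cells at 849 UPM. Tssc4 and Nap1l4 were the members with the least spread, 1.40-fold and 1.36-fold between the highest and lowest class.

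On chromosome 12, the Dlk1-Meg3 cluster expresses Dlk1, a transmembrane protein of the Notch family of ligands that holds progenitors undifferentiated, from the paternal copy, and Meg3 and Mirg, non-coding RNAs, from the maternal copy. Dlk1 stood at 50.01, 76.9, 98.2 and 176 UPM, Meg3 at 174, 218, 276 and 414, and Mirg at 3.84, 5.87, 3.20 and 7.38 from 97, 151, 302 and 772 UMIs. The cKO library was the higher of the pair at both stages for all 3 genes, and genes of both parental copies thus differed in the same direction. Their log2 ratios were 0.62, 0.32 and 0.61 at E8.5, and 0.84 (0.80 to 0.87), 0.58 (0.56 to 0.60) and 1.204 (1.01 to 1.40) at E9.5. Set against the all-gene median of E9.5 these were 1.09, 0.84 and 1.46.

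Mirg is the host of 10 hairpins and 19 mature microRNAs in RefSeq on GRCm38.p6. Of these, miR-453 and miR-496a-5p share a seed, GGUUGCC, the single seed shared within the host, and miR-154-3p and miR-410-3p are shown for comparison, with the seed in capitals.
miR-453: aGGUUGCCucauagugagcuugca
miR-496a-5p: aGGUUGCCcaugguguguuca
miR-154-3p: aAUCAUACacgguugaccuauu
miR-410-3p: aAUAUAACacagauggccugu
The start windows of the 3 genes held 9, 13 and 10 CpG for Dlk1, the upstream Meg3 start and Mirg, shown with each CpG in capitals because the 3 genes differed in the same direction.
Dlk1, chr12:109452573-109452872, plus strand: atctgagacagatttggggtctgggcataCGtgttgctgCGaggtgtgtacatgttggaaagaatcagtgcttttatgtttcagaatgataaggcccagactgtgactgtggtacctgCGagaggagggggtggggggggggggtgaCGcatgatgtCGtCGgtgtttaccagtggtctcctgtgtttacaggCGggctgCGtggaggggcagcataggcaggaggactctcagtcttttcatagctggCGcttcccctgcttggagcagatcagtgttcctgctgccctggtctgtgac
Meg3, chr12:109540746-109541045, plus strand: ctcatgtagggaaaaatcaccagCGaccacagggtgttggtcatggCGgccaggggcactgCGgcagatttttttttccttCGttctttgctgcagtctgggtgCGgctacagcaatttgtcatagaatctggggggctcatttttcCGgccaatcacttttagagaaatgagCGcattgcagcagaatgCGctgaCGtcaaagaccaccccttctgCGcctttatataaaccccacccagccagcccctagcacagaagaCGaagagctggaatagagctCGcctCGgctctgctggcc
Mirg, chr12:109734731-109735030, plus strand: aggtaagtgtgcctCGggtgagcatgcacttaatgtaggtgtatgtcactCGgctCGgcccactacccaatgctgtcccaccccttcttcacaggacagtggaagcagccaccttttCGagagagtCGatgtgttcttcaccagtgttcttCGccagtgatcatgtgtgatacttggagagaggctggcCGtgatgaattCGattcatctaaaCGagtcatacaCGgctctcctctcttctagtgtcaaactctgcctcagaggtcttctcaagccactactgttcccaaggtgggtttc

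The E9.5 ratio of Dlk1 differed widely between cell groups. These values were looked up after the whole-library value had been seen. Dlk1 did not pass 2-fold over all cells as scaled here, but did with TMM (1.10) and relative to the all-gene median. In mesenchyme-like cells Dlk1 stood at 11.04, 9.15, 8.67 and 90.2 UPM, which made the cKO E9.5 library the high one. The E9.5 ratio was 3.38 (3.17 to 3.59) in log2, and Dlk1 was higher in all 5 mesenchyme-like clusters, by 3.56-fold to 20.2-fold, and by 10.4-fold in the unnamed cluster 1. The share of mesenchyme-like cells with a Dlk1 UMI after thinning at E9.5 was 6.73% (5.45% to 8.19%) for Ctrl and 35.6% (33.3% to 37.9%) for cKO, at median depths of 14689 and 15030 UMIs. Without thinning it was 9.27% and 41.5%. In endothelial-like cells the thinned shares were 11.7% and 18.9%. That class held cluster 13, with 352 Ctrl and 89 cKO cells at 9.56 and 10.98 UPM, and cluster 18, with 72 and 37 cells at 109.8 and 83.0 UPM. No class was free of Dlk1 UMIs, so the share that free RNA gives was not measured. In mesenchyme-like cells at E9.5 the 8 CM markers summed to 21.5 UPM in Ctrl and 25.7 in cKO, the 6 BrM markers to 6.94 and 7.76, the 9 MLP markers to 176 and 170, and the 8 aSHF/SoM markers, which cluster 8 carried, to 62.8 and 61.6. MLP-like cells gave 1.31 (1.15 to 1.46), from 211 to 521 UPM. BrM-like (0.04), CM-like (0.15) and epithelial-like cells (−0.01) and the unnamed cluster 8 (−0.02), in which Dlk1 was highest at 871 and 860 UPM, had ratios near 0. The BrM-like value combined cluster 6, in which the cKO level was 1.27 times that of Ctrl, with cluster 17, at 0.644 times, and the epithelial-like value combined 0.751 in cluster 12 with 1.13 in cluster 15. The cells of clusters 6 and 17 numbered 404 and 125 in Ctrl and 272 and 171 in cKO. At E8.5 the largest ratio among the named classes was 1.02, in MLP-like cells. Doublets were not removed here.

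Mirg was higher in the cKO in 13 of 14 cell groups at E9.5, with 9 of the intervals above 0, and its highest ratio was 1.99 in cluster 1 from 7 and 51 UMIs. Meg3 was higher in 10 of 14 groups, with its lowest ratio of −0.37 in epithelial-like cells and its highest of 1.52 in cluster 1. Among the 8 named classes of Ctrl E9.5 both Dlk1 and Meg3 were highest in CM-like cells, at 431 and 980 UPM, and lowest in mesenchyme-like cells, at 8.67 and 135.

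Proximal chromosome 7 holds Peg3, a zinc finger protein, with Usp29 read from the opposite strand of almost the same start, and Zim1, a maternally expressed neighbour. Peg3 stood at 223, 292, 301 and 322 UPM, Usp29 at 21.8, 35.9, 21.1 and 28.7, and Zim1 at 2.62, 3.22, 2.51 and 3.96. The cKO library was the higher of the pair at both stages for all 3, with log2 ratios of 0.39, 0.72 and 0.30 at E8.5 and of 0.10, 0.44 and 0.65 (0.42 to 0.89) at E9.5. The E8.5 interval of Zim1 (−0.18 to 0.79) included 0. By cell group the E9.5 ratio of Peg3 was below 0 in 7 and above 0 in 7 of 14, from −0.44 in CM-like to 0.89 in neural-like cells. Over all cells the paternal and the maternal transcripts lay above the all-gene median. Peg3 was highest in CM-like cells at 556 UPM and lowest in endothelial-like cells at 122, and Usp29 had the same extremes at 57.3 and 6.98. The Peg3 window overlaps the Usp29 window on the opposite strand (chr7:6730333-6730632), and holds 13 CpG, in capitals below.
Peg3, chr7:6730370-6730669, minus strand: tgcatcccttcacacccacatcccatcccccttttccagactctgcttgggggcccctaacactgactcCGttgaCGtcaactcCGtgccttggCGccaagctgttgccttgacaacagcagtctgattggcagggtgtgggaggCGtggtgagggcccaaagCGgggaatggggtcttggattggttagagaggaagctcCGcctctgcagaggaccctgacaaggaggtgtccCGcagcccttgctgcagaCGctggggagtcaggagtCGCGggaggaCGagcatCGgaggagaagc

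On chromosome 6, Peg10 is a gene of retrotransposon origin needed for the placenta, and Sgce, a sarcoglycan, starts beside it. Peg10 stood at 37.3, 45.2, 38.2 and 16.5 UPM, so that the cKO E9.5 library was the low one, with ratios of 0.28 (0.15 to 0.40) at E8.5 and −1.21 (−1.29 to −1.12) at E9.5. Its ratio was below 0 in all 14 cell groups at E9.5, with 12 of the intervals below 0, from −1.88 (−2.90 to −0.99) in CM-like cells to −0.39 in neural-like cells and in cluster 14. Sgce stood at 14.2, 15.8, 33.5 and 26.9 UPM, Ppp1r9a, a neuronal actin-binding protein, at 7.53, 8.20, 12.6 and 10.1, and Casd1, a sialic acid acetyltransferase, at 21.0, 26.4, 28.8 and 33.7. These 3 differed less than Peg10 did, by −0.32 to 0.22 in log2 at E9.5. Asb4, a subunit of ubiquitin ligases active in vessels, stood at 18.1, 29.8, 45.7 and 62.3 UPM, with the cKO library higher at both stages. It was highest in endothelial-like cells in Ctrl E9.5, at 148 UPM, and lowest in neural-like cells at 5.24 from 9 UMIs. Over all cells Asb4 and Casd1 were higher and Peg10, Sgce and Ppp1r9a lower in the cKO at E9.5. Relative to the all-gene median, Sgce and Ppp1r9a stood at −0.06 and −0.07 and Peg10 at −0.95, while Asb4 and Casd1 stood at 0.70 and 0.48. That the cluster did not move in 1 direction thus rests on Peg10 against Asb4 and Casd1.

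**Figure D4:**
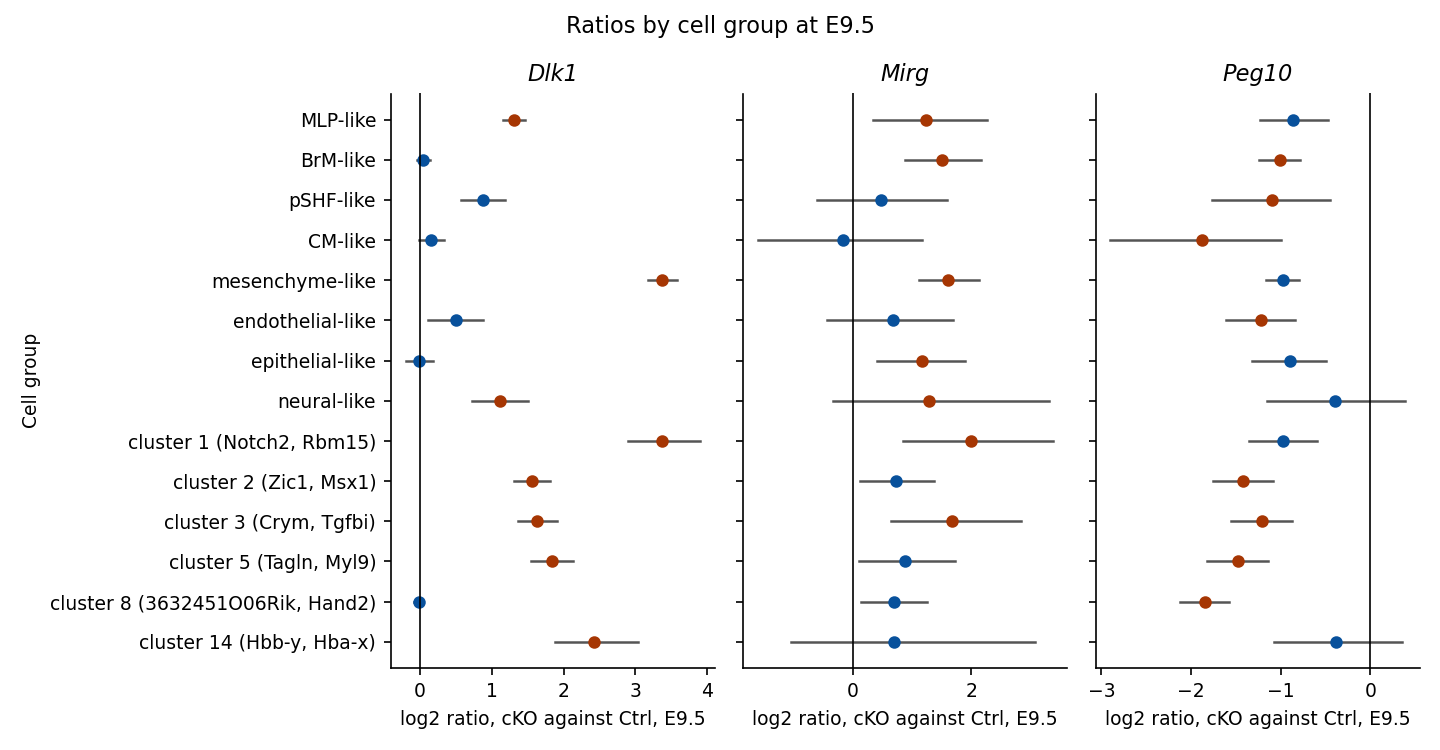
Log2 ratio of cKO against Ctrl at E9.5 for Dlk1, Mirg and Peg10 in each cell group with 50 or more cells in both libraries, with 95% counting intervals and red points past 2-fold. Dlk1 lies near 0 in BrM-like, CM-like and epithelial-like cells and in cluster 8 and above 3 in mesenchyme-like cells and cluster 1, Mirg lies above 0 in 13 of 14 groups, and Peg10 lies below 0 in all 14.

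Central chromosome 7 holds the Prader-Willi cluster, whose members are expressed from the paternal copy, mainly in neurons. Ndn, a growth suppressor of neurons, stood at 67.7, 67.3, 118 and 115 UPM, and Snrpn, a splicing protein, at 115, 87.2, 79.0 and 83.8. Magel2 had 26, 37, 68 and 103 UMIs, or 1.03, 1.44, 0.721 and 0.984 UPM, and Mkrn3, a ring finger protein, stood at 4.75, 4.04, 4.72 and 4.48. Within a stage these 4 differed by less than 2-fold, with Snrpn at −0.40 (−0.48 to −0.32) at E8.5 the clearest, and the intervals of Magel2 (−0.01 to 0.91) and Mkrn3 (−0.26 to 0.12) at E9.5 included 0. Ndn and Snrpn were highest in pSHF-like cells in Ctrl E9.5, at 256 and 175 UPM, rather than in neural-like cells.

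The Mest locus of chromosome 6 also holds Copg2, whose annotated span (chr6:30747554-30896815) overlaps the end of Mest (chr6:30733506-30748466). Mest, a hydrolase of the embryonic mesoderm, stood at 734, 952, 1464 and 1593 UPM, and Copg2, a coatomer subunit, at 12.5, 13.4, 25.5 and 13.8. Mest differed by 0.37 and 0.12 in log2 at E8.5 and E9.5 over all cells, with 8 of 14 groups below 0 at E9.5, whereas Copg2 was lower in the cKO at E9.5, at −0.89 (−0.98 to −0.79) and in all 14 cell groups. Mest lies on the plus strand and Copg2 on the minus strand. Whether the counting used strand is not given in the sources used here, and how reads of the overlap were assigned was not tested. Mest was highest in endothelial-like cells at 2537 UPM and lowest in BrM-like cells at 614. Its span holds miR-335 (miR-335-5p at chr6:30741314-30741336), seed in capitals.
miR-335-5p: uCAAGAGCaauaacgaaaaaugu
miR-335-3p: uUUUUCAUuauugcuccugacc

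On chromosome 17, Igf2r encodes the receptor that removes IGF2, and Airn is the non-coding RNA that overlaps it on the opposite strand. Igf2r stood at 27.2, 39.2, 32.1 and 30.5 UPM, and Airn at 7.05, 8.55, 9.44 and 11.3. The receptor differed by 0.53 (0.39 to 0.67) at E8.5 and by −0.08 at E9.5, the latter changing sign with the scaling, so that it did not follow Igf2 over all cells. Both were highest in CM-like cells in Ctrl E9.5, at 164 and 35.0 UPM, and lowest in neural-like cells at 11.1 and 3.50.

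Of the members outside these clusters, Gnas, which encodes the stimulatory G protein subunit, stood at 621, 586, 1391 and 840 UPM. It was lower in the cKO at E9.5, at −0.73 (−0.74 to −0.72) over all cells and below 0 in all 14 cell groups with every interval below 0. Plagl1, a zinc finger factor of growth arrest, stood at 9.67, 9.33, 21.0 and 14.4 UPM, Slc38a4, an amino acid transporter, at 34.2, 38.7, 56.2 and 45.2, and Grb10, a brake on insulin signalling, at 201, 215, 240 and 224. Their E9.5 ratios were −0.54, −0.31 and −0.10 over all cells, the last changing sign with the scaling. The all-cell value of Plagl1 did not hold in most cell groups, since its ratio was above 0 in 8 of 14, with 2.67 in cluster 1 and 1.86 in mesenchyme-like cells, and lowest in MLP-like cells at −1.07. Nnat, a membrane protein of neurons, stood at 716, 706, 818 and 950 UPM, Impact, a regulator of translation, at 38.8, 37.2, 37.7 and 38.6, and Zrsr1, a splicing factor, at 8.04, 8.28, 8.26 and 8.41. Impact and Zrsr1 varied little over the 4 libraries. Gatm, the first enzyme of creatine synthesis, stood at 3.21, 2.25, 5.40 and 2.68 UPM, and Dcn, the matrix proteoglycan decorin, at 4.83, 5.05, 5.53 and 2.39. For both the cKO E9.5 library was the lower of the E9.5 pair, and Gatm was also lower at E8.5, at −0.51 (−1.02 to −0.01). In mesenchyme-like cells at E9.5 Dcn stood at 8.55 UPM in Ctrl and 1.83 in cKO, a ratio of −2.23 (−2.68 to −1.80), and Gatm had a ratio below 0 in 12 of 13 groups with a ratio, but with only 1 interval below 0.

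Across the 8 named classes of Ctrl E9.5, the 32 members with 500 or more UMIs spread unevenly. Unnamed clusters are left out of the highest and lowest classes given here and for the loci above. CM-like cells held the highest level of 16 members, endothelial-like cells of 6, BrM-like and pSHF-like cells of 3 each, MLP-like cells of 2, and mesenchyme-like and neural-like cells of 1 each. No share over all genes was set beside these counts or those of the lowest class below. Neither is therefore read as particular to imprinted genes. The interval of the CM-like level overlapped that of the next class for Igf2, Kcnq1ot1, Sgce, Ppp1r9a and Plagl1. The lowest level lay in endothelial-like cells for 11 members and in neural-like cells for 9. Plagl1 went from 108 UPM in CM-like cells to 1.90 in mesenchyme-like cells, and Slc38a4 from 106 in CM-like to 17.5 in neural-like cells. Grb10 also peaked in CM-like cells, at 455 UPM, and Peg10 in endothelial-like cells, at 66.4. The unnamed cluster 8 held more Peg10, at 96.9 UPM. Nnat, in contrast, was highest in BrM-like cells at 2044 UPM and lowest in endothelial-like cells at 145. Gnas was highest in endothelial-like cells at 1830 UPM and lowest in epithelial-like cells at 1072, and Gatm had its extremes in endothelial-like and mesenchyme-like cells at 14.8 and 1.65. Dcn was highest in mesenchyme-like cells at 8.55 UPM, with 3 UMIs or 0.349 UPM in endothelial-like cells. The unnamed clusters 5 and 1 held more Dcn, at 22.6 and 12.9 UPM. Ppp1r9a, Sgce, Airn and Igf2r shared the CM-like peak, while Casd1 and Impact peaked in MLP-like cells at 38.7 and 44.9 UPM, Copg2 in neural-like cells at 37.3 and Zrsr1 in pSHF-like cells at 10.2. For the last 4 the highest class did not separate from the next by its interval.

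**Figure D5:**
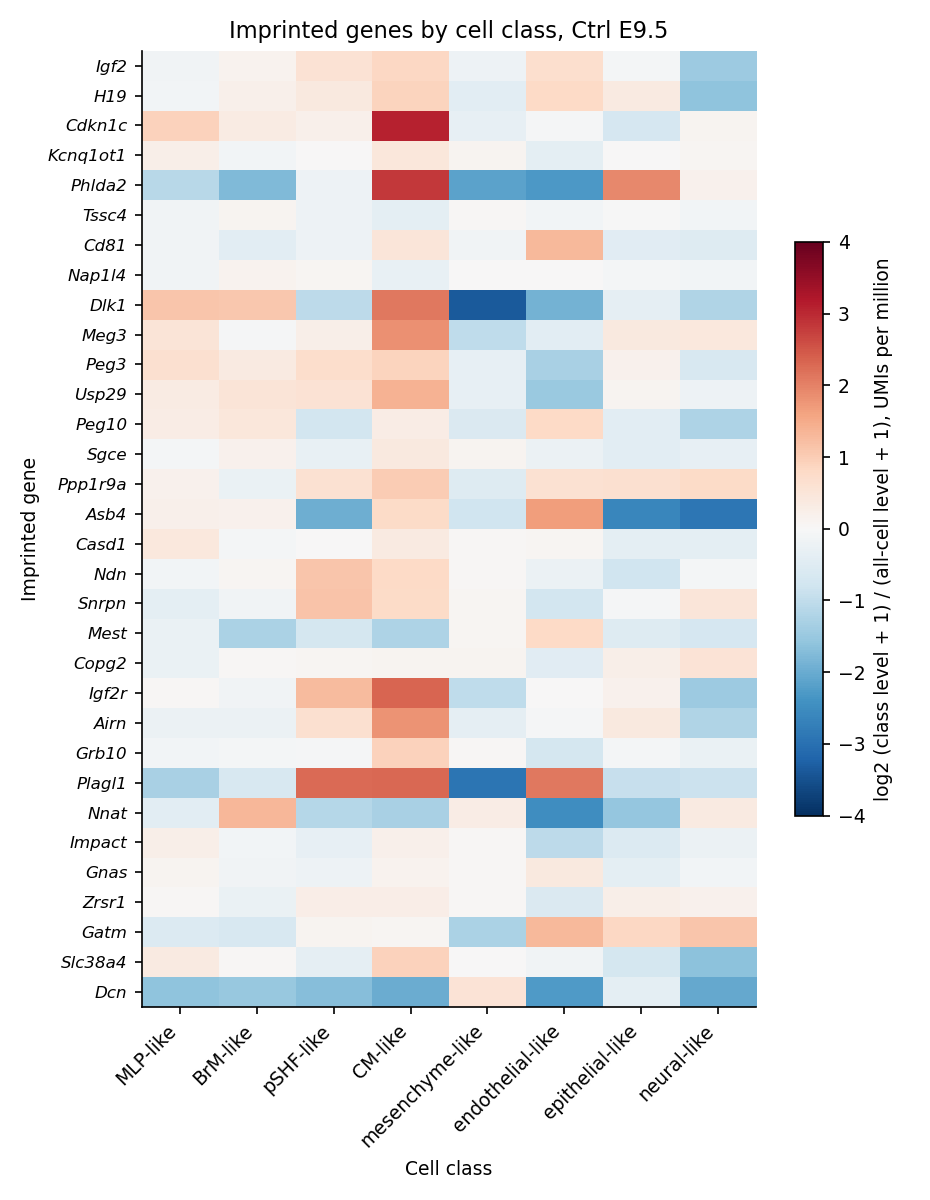
Each row is 1 of the 32 imprinted genes with 500 or more UMIs in Ctrl E9.5 and each column 1 of the 8 named classes, coloured by the log2 of the class level over the all-cell level, with 1 UPM added to both. CM-like cells are red for most genes, at most for Cdkn1c, and mesenchyme-like cells are blue for Dlk1 and Plagl1.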

How the data were processed

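Cells were sorted by the authors as live and GFP-positive and captured with a 3′ droplet kit, and the deposited matrices hold raw UMI counts per gene and barcode. The submitters' notes name Cell Ranger 3.1.0 and mm10 (GRCm38), while the E8.5 matrix headers name 3.0.2. The deposited counts were used as given, on the 27514 identifiers shared by both gene tables, which hold 99.4% to 99.9% of each library's UMIs. UMIs were summed per library or cell group, scaled to 1000000 (UPM), and compared as ratios with exact conditional binomial intervals (SciPy 1.17.1). A gene was tested with 20 or more UMIs in both libraries together, and past 2-fold was called. Every ratio between libraries compares those libraries only. The ratio and its interval were tested on counts simulated with counting error only. No variation between embryos or libraries was simulated, so that source of error was not tested.

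Clusters came from Seurat 5.3.0 (30 components, 2000 variable genes, resolution 1, reciprocal PCA integration). A name needed 3 or more markers with 20 or more UMIs at 1.5-fold with 10 UPM added, 1 of them among the 10 leading genes, more markers there than any other class (a tie gave no name), and, by a condition set after the clusters were seen, 1 marker UMI in the median Ctrl cell, which left cluster 14, led by haemoglobin genes, unnamed. No barcode was removed. Doublets were not removed, since the caller tried (Scrublet) marked too few cells at E9.5 to be of use, and leaving out the 5% of barcodes with most UMIs stood in for this. All members found are named, with values. Cell-group values of Dlk1 were chosen after values were seen. The members and lists were chosen with earlier results of these data known. Positions and sequences are from RefSeq on GRCm38.p6.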

Additional observations from a re-analysis of the deposited data

Results flagged for a closer look

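The Igf2 ratio of cKO to Ctrl moved in opposite directions at the 2 stages, with a log2 ratio of 0.73 at E8.5 and −4.87 at E9.5. Peg10 did the same, with 0.28 at E8.5 and −1.21 at E9.5. Each stage has 1 library per genotype, the E9.5 pair was counted on different gene tables, and the difference between stages was not tested for either gene. At E8.5 the cKO embryos had the higher range of somite counts.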

How the results depend on the processing

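Under TMM scaling Igf2 at E9.5 was −4.61, without mitochondrial, ribosomal protein and haemoglobin genes in the denominator −4.75, and with both libraries set to the class composition of the cKO library −4.72. The members' E9.5 median changed sign, from −0.07 to 0.18 with TMM and to 0.05005 without those genes. Members past 2-fold at E8.5 went from 0 to 1 with TMM, to 2 at fixed class composition, to 1 without the 5% of barcodes with most UMIs, and to 1 relative to the all-gene median. At E9.5 they went from 5 (1 higher, 4 lower) to 3 with TMM and to 3 relative to that median (2 higher, 1 lower in each), and between stages in Ctrl from 9 (7 higher, 2 lower) to 4 (2 and 2) and to 3 (1 and 2). At 1.5-fold they were 7, 10 and 20, beside 13.3%, 31.0% and 42.8% of all genes. The shares of cells with an Igf2 UMI became 84.1%, 92.9%, 92.4% and 13.9% without thinning, and 43.2%, 66.0%, 66.1% and 0.577% for 2 or more UMIs. The cause of these changes was not tested beyond what each setting alters. Igf2 was past 2-fold lower in all 8 named classes at E9.5 under the 4 alternatives run (resolution 0.5, no integration, TMM and a barcode filter). Leaving out the barcodes with most UMIs or clusters 14 and 22, setting ratios against the all-gene median, and recomputing cell-group levels under other clusterings or a barcode filter were chosen after seeing the data. Intervals cover counting error only, and the E8.5 intervals of Ascl2, Magel2, Osbpl5, Zim1 and Gatm are wide for lack of UMIs. No paired analysis was possible because each group has 1 library.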
